A study of Mus musculus with 10 samples.

Results

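Conventional CD4+ T cells that had received a virus labelled as carrying Foxp3 were set against natural regulatory T cells (Treg) that had received the empty virus. The comparison took 4 of the 10 arrays, chosen by their sample titles, with 2 arrays for Foxp3-labelled conventional cells (Foxp3-labelled Tconv) and 2 for Treg. All 10 arrays entered the fit, and the other 6 served as context. Every array measured RNA of mouse T cells from spleen, and the strain field named DEREG on Balb/c for all of them. DEREG mice carry a transgene in which the Foxp3 promoter drives GFP.

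The Foxp3-labelled Tconv began as GFP- CD4+ cells of DEREG mice, were stimulated with antibodies to CD3 and CD28, and were then infected with a Foxp3 retrovirus of the pGCSamIN backbone, whose NGFR marker was used to sort the infected cells. Treg began as GFP+ CD4+ cells of the same strain and underwent the same stimulation and sort, but with the empty vector (mock). Context came from GFP- cells with the empty vector (Tconv mock), and from GFP+ cells of DEREG/Scurfy mice, whose own Foxp3 gene is mutated, with the Foxp3 virus (scurfy Foxp3) or the empty one (scurfy mock), each with 2 arrays. The titles call GFP+ starting cells epigenetics(+) and GFP- cells epigenetics(-). Both groups of the comparison thus shared the activation and the infection, and differed in the starting cell and in the cargo of the virus. These 2 differences cannot be told apart within the comparison. GFP reports the promoter of Foxp3 and not its protein, and the labels do not say whether animals were pooled or whether the 2 arrays of a group came from separate cultures, so p-values measure the spread between these arrays only.

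Foxp3 is a forkhead transcription factor that is needed for the development and the suppressive function of Treg. Treg also carry a pattern of DNA demethylation at a set of loci, among them Foxp3, Ikzf2, Ikzf4, Ctla4, Il2ra and Tnfrsf18, that forms during their development largely independently of Foxp3. By its labels, the comparison asks how conventional cells given a Foxp3 virus, without that pattern, differ from natural Treg.

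Median intensity was 24.3 and 24.1 on the Foxp3-labelled Tconv arrays, against 25 and 36.5 on the Treg arrays, and no further scaling was applied. Replicates differed by more than 1 log2 unit at 4.43% of probe sets in Foxp3-labelled Tconv and at 10.2% in Treg. All 12 pan T cell genes, such as Cd3d, Cd3e and Cd4, lay above the array median on all 4 arrays. Sums of marker intensities moved in part with single arrays. The sum of 9 MHC class II presentation genes was 2377 and 2693 in Foxp3-labelled Tconv, against 774 and 5739 in Treg, and that of 12 B cell markers was 669 and 714 in Foxp3-labelled Tconv, against 301 and 1337 in Treg. The sum of 15 myeloid markers was 1181 and 1199 in Foxp3-labelled Tconv, against 2750 and 4527 in Treg. Cathepsin S (Ctss) gave most of that sum, with 690 and 887 in Foxp3-labelled Tconv, against 2375 and 3708 in Treg. Of the 15, 9 lay at or below the array median on all 4 arrays, among them Lyz2, Itgam and Cd14, and of the 8 that were tested 7 were below 0. Mpeg1 read 1.02 and 1.26 in Foxp3-labelled Tconv, against 3.62 and 38.6 in Treg, and Tyrobp 8.63 and 22.2 in Foxp3-labelled Tconv, against 15.8 and 50.9 in Treg. NK cell markers summed to 976 and 151 in Foxp3-labelled Tconv, against 64.5 and 836 in Treg, so 1 array of each group was high; Gzma, which T cells express too, gave 926 of the 976 and 771 of the 836, and 4 of the 7 markers lay at or below the median on all 4 arrays. Sums of CD8 T cell markers were 309 and 377 in Foxp3-labelled Tconv, against 201 and 190 in Treg. Mast cell and basophil markers summed to 78.1 and 123 in Foxp3-labelled Tconv, against 71.9 and 255 in Treg, and red blood cell markers to 45.2 and 33.7 in Foxp3-labelled Tconv, against 38.4 and 52.6 in Treg. The part of other cells in the results below was not tested. In RNA of sorted populations, fewer cells of a type and less RNA per cell cannot be told apart.

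Foxp3-labelled Tconv had much lower signals than Treg for Foxp3 itself, for the Ikaros family members Helios and Eos, and for CD73 and KLRG1. Also much lower were the IL-18 receptor gene Il18r1 and the IL-1 decoy receptor gene Il1r2. A smaller set of genes was higher than in Treg, among them the lipid kinase gene Dgkk, Rnd3, Fam71b, the sulfotransferase gene Hs3st3b1, the receptor gene Slamf7 and the genes of the secreted factors endothelin-1 and CSF1. Of 26069 probe sets tested with limma, 145 were called at an adjusted p under 0.05, or 0.556% of them. Of these, 21 (0.0806%) were higher and 124 (0.476%) were lower in Foxp3-labelled Tconv. When each gene was read from its brightest probe set, 71 of 11337 genes (0.626%) were called, with 12 (0.106%) higher and 59 (0.52%) lower. The intensities of the 2 groups did not overlap at any called probe set, and did not overlap at 48.3% of all probe sets either. The median difference over all probe sets was 0.0055 on the log2 scale. Differences are log2 values of intensity + 16, Foxp3-labelled Tconv minus Treg, with the SE of the fit and n = 2 arrays per group.

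The number of calls rested on single arrays. It was 29 without Foxp3-labelled Tconv array 1, 11 without array 2, 49 without Treg array 1 and 12 without Treg array 2, and it was 222, 41 of them higher, without either scurfy mock array. Without either Tconv mock array it was 118, with 13 higher. Of the 71 called genes, 6 passed the threshold whichever of the 10 arrays was left out, namely Ikzf2, Foxp3, Cpe, Nt5e, Flicr and Hs3st3b1. The other 65 lost the call without at least 1 array. Dropped from the test without at least 1 array were 5 of the 71, among them Gad1 and Ccl20, because too few arrays then read above the array median. None of the 71 changed sign under any of the settings tried.

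**Figure D1:**
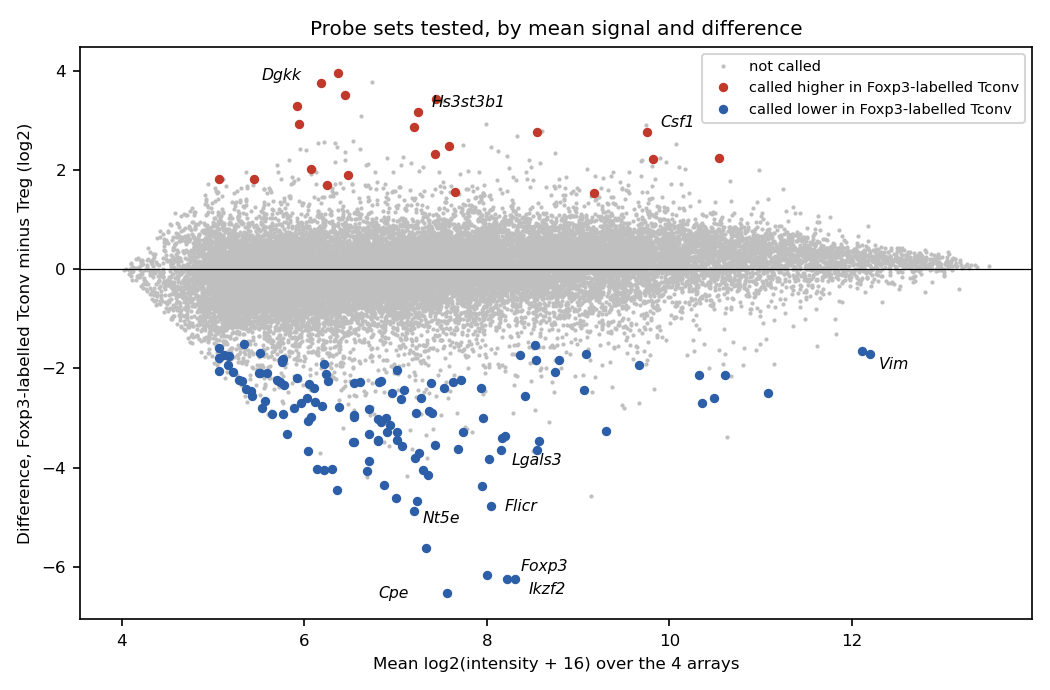
Each point is a probe set, with its mean log2(intensity + 16) over the 4 arrays on the horizontal axis and its log2 difference, Foxp3-labelled Tconv minus Treg, on the vertical axis. The 21 probe sets called higher are red, the 124 called lower are blue, and Ikzf2, Foxp3 and Cpe lie at the bottom with differences beyond -6.

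Foxp3 was read from 1 probe set. Its intensity was 18 and 18.9 on the Foxp3-labelled Tconv arrays, against 2130 and 3128 on the Treg arrays. Both Foxp3-labelled Tconv arrays thus lay below their array medians, far under both Treg arrays. The difference was -6.24 ± 0.31 (limma, adjusted p = 2.94e-05). Tconv mock arrays read 53.9 and 35.9, above the arrays labelled as carrying the Foxp3 virus. In scurfy cells the probe set read 948 and 691 with the Foxp3 virus, against 1188 and 1114 with the empty one. It was thus not higher on arrays labelled with the Foxp3 virus in either kind of cell. Where its probes lie relative to the transduced sequence is not given in the sources used here, so the virus could not be checked and the arrays are named by their label throughout.

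Ikzf2, the gene of Helios, a zinc finger factor of natural Treg, read 16.9 and 24.4 in Foxp3-labelled Tconv, against 2261 and 3341 in Treg. No Foxp3-labelled Tconv array came near a Treg array. Its difference was -6.24 ± 0.31 (adjusted p = 2.94e-05), and 2 further probe sets of the gene were called lower as well, at -6.16 and -5.62. Cpe, which encodes carboxypeptidase E, an enzyme that trims prohormones, had 5.54 and 1.96 in Foxp3-labelled Tconv, against 2178 and 1488 in Treg, with a difference of -6.53 ± 0.32 (adjusted p = 2.94e-05). The 2 readings in Foxp3-labelled Tconv were at background, and so were those of Tconv mock, 6.75 and 0.391.

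Nt5e encodes CD73, the surface enzyme that turns AMP into adenosine. Its intensity was 9.08 and 13.5 in Foxp3-labelled Tconv, against 838 and 720 in Treg, a difference of -4.87 ± 0.32 (adjusted p = 0.00021). Its probe sets disagreed: of 2 further ones, 1 was lower too and called, and the other had the opposite sign and no call. Flicr, a non-coding RNA gene that neighbours Foxp3, read 36.0 and 33.5 in Foxp3-labelled Tconv, against 1500 and 1242 in Treg, a difference of -4.77 ± 0.31 (adjusted p = 0.000186). For both genes the 2 groups were far apart on every array.

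Il18r1, the ligand-binding chain of the IL-18 receptor, read 3.49 and 16.2 in Foxp3-labelled Tconv, against 284 and 574 in Treg, a difference of -4.07 ± 0.50 (adjusted p = 0.00982). Klrg1, an inhibitory lectin-like receptor of differentiated Treg and effector cells, read 31.0 and 22.2 in Foxp3-labelled Tconv, against 514 and 563 in Treg, a difference of -3.71 ± 0.55 (adjusted p = 0.0224). Treg were the high group for both receptors. Neither call held without Treg array 2 or without either Foxp3-labelled Tconv array, and that of Klrg1 did not hold without Treg array 1 either.

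Hs3st3b1 encodes a 3-O-sulfotransferase that modifies heparan sulfate. It read 414 and 470 in Foxp3-labelled Tconv, against 38.9 and 30.5 in Treg. Here the Foxp3-labelled Tconv arrays were the high ones. The difference was 3.18 ± 0.27 (adjusted p = 0.00152). The 2 further probe sets of the gene, at 1.31 and 0.51, had the same sign and were not called. Tconv mock arrays lay between, at 98.1 and 115.

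**Figure D2:**
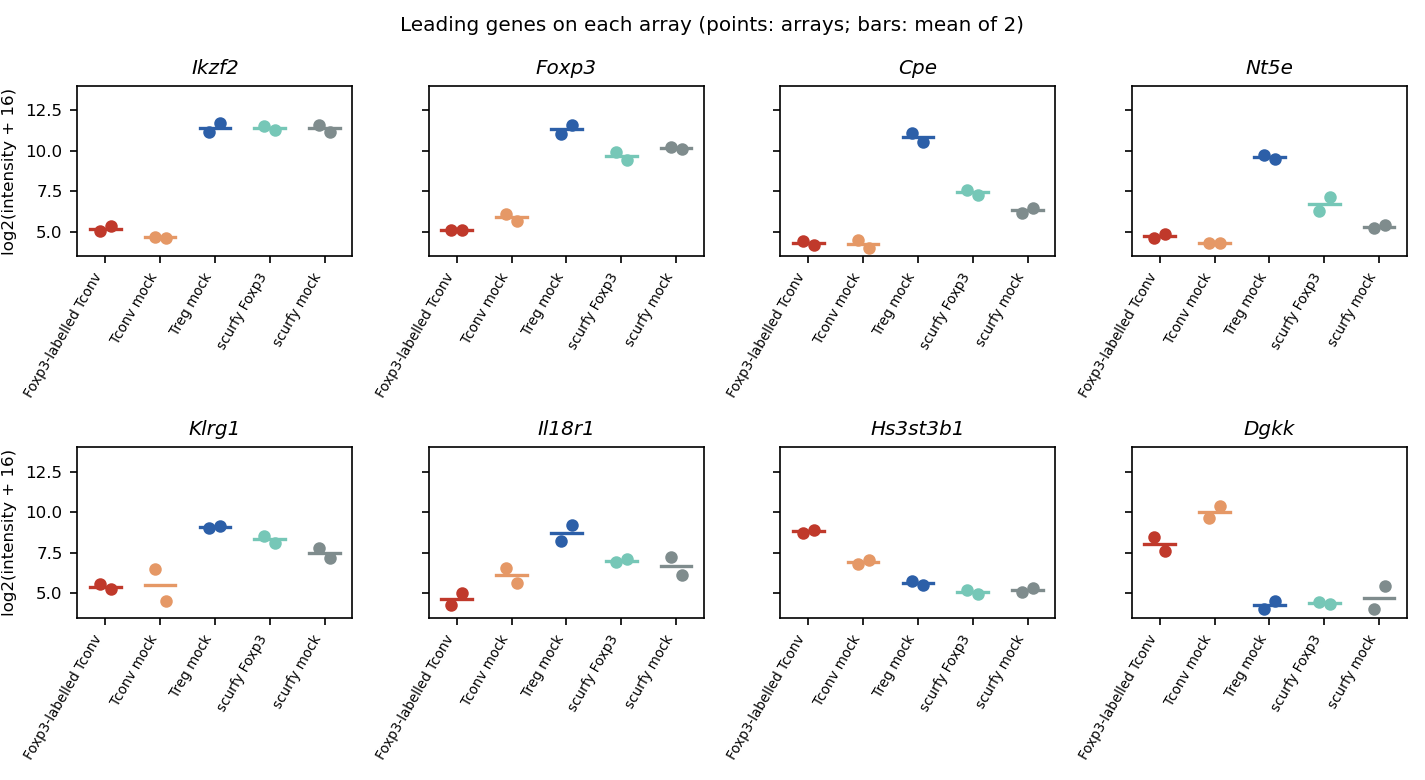
Each panel shows 1 gene, with log2(intensity + 16) on the vertical axis, 1 point per array and a bar at the mean of 2 arrays for each of the 5 groups. Ikzf2, Foxp3, Cpe, Nt5e, Klrg1 and Il18r1 are low in Foxp3-labelled Tconv and high in Treg, whereas Hs3st3b1 and Dgkk are the reverse.

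The promoters of 4 leading genes are shown because the titles contrast the groups by their epigenetic state and CG pairs are where DNA methylation mostly lies. Foxp3 and Nt5e were lower in Foxp3-labelled Tconv, and Hs3st3b1 and Rnd3 were higher. Of the 4, only Foxp3 is among the demethylated loci named above. The sources used here do not say whether any of these windows holds a site of Treg-specific demethylation. Foxp3 has 2 windows, and the upstream one is shown. The sequences are RefSeq's, build GRCm38.p6, 250 bases before to 50 after the start of the gene, read 5′ to 3′ on the strand of the gene, with CG pairs in capitals. The windows are chrX:7579426-7579725 on the plus strand for Foxp3, chr9:88327359-88327658 on the plus strand for Nt5e, chr11:63922235-63922534 on the minus strand for Hs3st3b1 and chr2:51149062-51149361 on the minus strand for Rnd3.
Foxp3: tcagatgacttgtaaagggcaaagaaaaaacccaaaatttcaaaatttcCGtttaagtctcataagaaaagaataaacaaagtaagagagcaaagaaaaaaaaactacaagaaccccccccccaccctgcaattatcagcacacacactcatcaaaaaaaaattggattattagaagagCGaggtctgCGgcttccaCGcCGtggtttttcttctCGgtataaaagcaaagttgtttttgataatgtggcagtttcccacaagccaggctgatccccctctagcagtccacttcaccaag
Nt5e: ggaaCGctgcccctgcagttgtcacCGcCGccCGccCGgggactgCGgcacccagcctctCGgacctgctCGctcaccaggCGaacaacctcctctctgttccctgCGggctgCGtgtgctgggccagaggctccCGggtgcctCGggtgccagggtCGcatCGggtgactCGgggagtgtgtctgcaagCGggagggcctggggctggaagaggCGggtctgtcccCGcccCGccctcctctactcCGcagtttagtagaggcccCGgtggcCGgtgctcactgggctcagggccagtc
Hs3st3b1: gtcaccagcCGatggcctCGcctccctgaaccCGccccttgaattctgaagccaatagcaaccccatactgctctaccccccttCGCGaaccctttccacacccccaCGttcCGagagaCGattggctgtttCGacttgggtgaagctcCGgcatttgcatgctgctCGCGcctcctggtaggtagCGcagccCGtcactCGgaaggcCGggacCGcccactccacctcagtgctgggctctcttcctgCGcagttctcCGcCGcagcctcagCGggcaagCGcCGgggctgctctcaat
Rnd3: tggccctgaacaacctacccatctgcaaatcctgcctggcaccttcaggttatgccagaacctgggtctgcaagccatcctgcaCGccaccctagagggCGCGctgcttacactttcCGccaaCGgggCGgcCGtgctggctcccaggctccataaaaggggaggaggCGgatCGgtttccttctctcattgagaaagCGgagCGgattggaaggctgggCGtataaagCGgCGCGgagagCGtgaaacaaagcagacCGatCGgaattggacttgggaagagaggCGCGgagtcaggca
Foxp3 had 6 CG pairs in this window, and 56.4% of all 32851 promoter windows had at least as many. Nt5e and Hs3st3b1 had 23 each and Rnd3 had 20, and 21.5% and 26.5% of all windows reached these counts. The windows of called genes held a median of 14 CG pairs for the 49 of 59 lower genes with a window and of 20 for the 10 of 12 higher genes, beside 7 over all windows. That table also holds genes that these T cells do not express, so the medians are no test. The forkhead motif TGTTTAC, searched on both strands (GTAAACA on the other), was in 2 of 69 windows of lower genes (2.9%), those of Adam19 and Adam8, and in 0 of 11 windows of higher genes, beside 3.65% of all windows. No methylation was measured on these arrays.

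The transcription factors among the called genes were all lower in Foxp3-labelled Tconv. The list of 23 Treg transcription factors had 4 called lower, beside 0.52% of all genes, and 0 called higher. Its median was -0.10, beside 0.08 over all genes. Besides Ikzf2 and Foxp3 the called members were Ikzf4 and Rora. The starting cells were chosen by GFP driven by the Foxp3 promoter, so the call of Foxp3 is not independent of that choice. Ikzf4, the gene of Eos, a partner of Foxp3 in gene repression, read 523 and 480 in Foxp3-labelled Tconv, against 2742 and 4028 in Treg. The difference was -2.69 ± 0.30 (adjusted p = 0.00631), and its 2 further probe sets were called lower too. Rora, a nuclear receptor of tissue Treg and Th17 cells, read 46.1 and 59.4 in Foxp3-labelled Tconv, against 501 and 836 in Treg, at -3.28 ± 0.51 (adjusted p = 0.0256). All 6 further probe sets of Rora were lower, but only 2 of them were called. Both factors were lower on every Foxp3-labelled Tconv array than on either Treg array, though the signal of Ikzf4 was above the 75th percentile of all probe sets on both Foxp3-labelled Tconv arrays, which was 153.5 and 166.6. Within the Ikaros family of 5 genes the change was uneven: Ikzf1, Ikaros itself, read 1721 and 2510 in Foxp3-labelled Tconv, against 1097 and 1444 in Treg, and was not called (0.72 ± 0.39, adjusted p = 0.496). Maf, a factor that drives Il10, read 1142 and 190 in Foxp3-labelled Tconv, against 5078 and 5136 in Treg, at -3.39 ± 0.65, and missed the threshold on its brightest probe set (adjusted p = 0.0599), while 3 of its 5 further probe sets were called lower. Tead1, the DNA-binding partner of the Hippo pathway, was called at -4.03 ± 0.42 (adjusted p = 0.0047).

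The 6 listed loci of Treg-specific demethylation were all below 0, with a median of -2.30. Of these 6, 3 were called, beside 0.52% of all genes called lower. The 3 were Ikzf2, Foxp3 and Ikzf4, which are also counted among the Treg transcription factors above, so the 2 counts are not separate results. The 6 loci were far from uniform. Ctla4, an inhibitory receptor that Treg use to strip costimulatory ligands from other cells, read 1676 and 804 in Foxp3-labelled Tconv, against 3946 and 4865 in Treg, and was not called (-1.90 ± 0.40, adjusted p = 0.0875). Il2ra, the high-affinity chain of the IL-2 receptor, read 6657 and 5518 in Foxp3-labelled Tconv, against 8127 and 8558 in Treg, and was not called (-0.46 ± 0.26, adjusted p = 0.512). Its 95% interval ran from -1.04 to 0.12. Tnfrsf18, the gene of GITR, read 4403 and 3352 in Foxp3-labelled Tconv, against 4504 and 4881 in Treg, at -0.29 ± 0.34 (adjusted p = 0.778). Groups did not overlap for any of these 3 receptors, and did not overlap at 48.3% of all probe sets either.

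Beside 0.52% of all genes called lower, the surface and effector molecules of Treg had 4 of 23 called lower and 0 called higher. Their median was -1.63, and 22 of the 23 were below 0, beside 55.9% of all genes above 0. The exception was Tnfrsf4 (OX40), at 0.08 ± 0.31 (adjusted p = 0.943), whose sign changed to -0.15 under quantile normalization. Called members were Nt5e, Klrg1, Itgb8 and Il1r2. Itgb8, the integrin chain that frees TGF-beta from its latent form, read 2.37 and 2.07 in Foxp3-labelled Tconv, against 233 and 349 in Treg, a difference of -4.05 ± 0.45 (adjusted p = 0.00631). Il1r2, the decoy receptor of IL-1, read 39.1 and 12.6 in Foxp3-labelled Tconv, against 489 and 593 in Treg, at -3.80 ± 0.45 (adjusted p = 0.00827). Treg were high for both on each array. Nrp1, chosen after its values were seen, showed how the choice of probe set can set a call: its brightest one missed the threshold (-1.63 ± 0.42, adjusted p = 0.164), while the other 3 were called lower, at -2.40, -2.44 and -2.05.

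Of 19 chemokine receptors and homing genes, 3 were called lower, beside 0.52% of all genes, and 0 higher. Below 0 were 16 of the 19, beside 4996 of 11337 genes, and the median was -1.21. S1pr1, the sphingosine-1-phosphate receptor that lets lymphocytes leave lymphoid organs, read 37.0 and 39.5 in Foxp3-labelled Tconv, against 446 and 2732 in Treg. Both Treg arrays were higher, but they were far from each other, and the call (-4.38 ± 0.78, adjusted p = 0.0463) was close to the threshold. Cxcr6, a receptor of tissue-homing T cells, was at -2.97 ± 0.40 (adjusted p = 0.0148), and its further probe set was lower but not called (-2.29). Gpr15, which guides T cells to the colon, was at -2.79 ± 0.40 (adjusted p = 0.0204). Among receptors that leaned the other way, Ccr4 read 1825 and 2006 in Foxp3-labelled Tconv, against 862 and 885 in Treg, and was not called (1.12 ± 0.37, adjusted p = 0.269). The 9 IL-1 and IL-18 receptor genes had 2 called lower, again beside 0.52% of all genes, and a median of -0.84. Of the 9, 7 were below 0. Sigirr went the other way, at 1.12 ± 0.35 (adjusted p = 0.252), and was not called. In the TGF-beta pathway, 2 of 17 genes were called lower, beside 0.52% of all genes. They were Itgb8 and the inhibitory SMAD gene Smad7 (-3.13 ± 0.56, adjusted p = 0.0478). Below 0 were 12 of the 17, beside 4996 of 11337 genes. The further probe set of Smad7 was lower but not called (-1.98), and the Smad7 call was lost with 1 probe set per gene. Of 9 Th17 genes, Rora and the chemokine gene Ccl20 (-1.50 ± 0.27, adjusted p = 0.0463) were called lower, beside the same 0.52%. Below 0 were 8 of the 9, beside 4996 of 11337 genes. Ccl20 entered the test only through the Treg arrays, the only ones where it read above the array median.

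Among the other genes with the 15 largest negative differences, Adam19, a metalloprotease, was at -4.67 ± 0.64 (adjusted p = 0.016). Procr, the endothelial protein C receptor, was at -3.86 ± 0.45 (adjusted p = 0.00793). S100a4, a calcium-binding protein of motile cells, was at -3.83 ± 0.46 (adjusted p = 0.00879). These genes were low on both Foxp3-labelled Tconv arrays. Called genes also included, chosen after their values were seen, Sdc4 (-3.46 ± 0.36), which encodes the heparan sulfate proteoglycan syndecan-4, Gad1 (-3.65 ± 0.37), the enzyme that makes GABA, and Sgk1 (-3.00 ± 0.44), a serum-induced kinase. The further probe set of Gad1 was lower but not called (-1.75). Gad1 entered the test only through the Treg arrays, the only ones where it read above the array median. Of the 59 lower genes, 24 lay at or below the array median on both Foxp3-labelled Tconv arrays and 13 on 1 of them, so the size of those differences depends on the added 16.

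**Figure D3:**
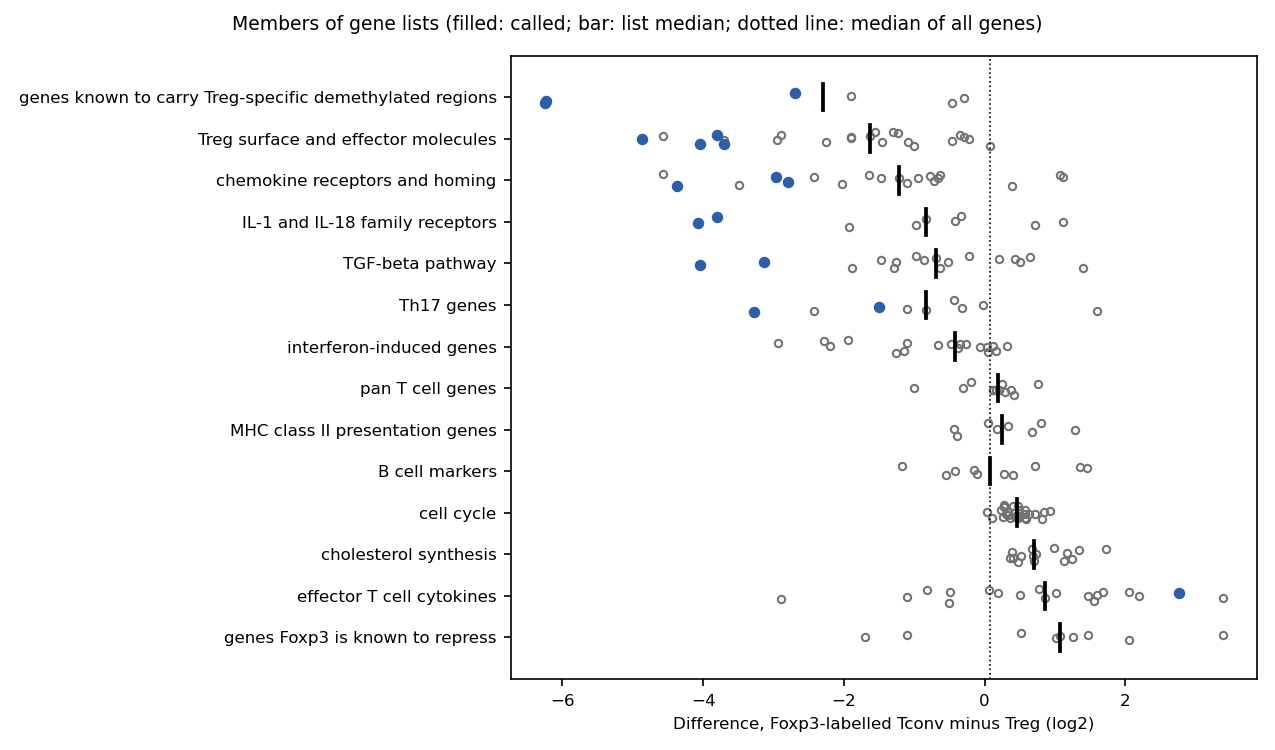
Each row is a gene list and each circle a member, placed by its log2 difference, Foxp3-labelled Tconv minus Treg; filled circles were called, bars mark list medians and the dotted line marks the median of all genes, 0.08. The loci of Treg-specific demethylation (top) have the lowest median of the lists plotted, -2.30, and genes that Foxp3 is known to repress the highest, 1.07.

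The genes that were higher in Foxp3-labelled Tconv than in Treg numbered 12. Dgkk, a diacylglycerol kinase gene, read 343 and 183 in Foxp3-labelled Tconv, against 0.548 and 7.45 in Treg, a difference of 3.76 ± 0.50 (adjusted p = 0.0146). Rnd3, which loosens actin fibres, read 270 and 289 in Foxp3-labelled Tconv, against 10.5 and 8.93 in Treg, a difference of 3.52 ± 0.49 (adjusted p = 0.0188). Both genes were at background in Treg. Edn1, endothelin-1, read 175 and 135 in Foxp3-labelled Tconv, against 1.79 and 12.1 in Treg, at 2.93 ± 0.47 (adjusted p = 0.0289). Slamf7, a receptor of activated and cytotoxic lymphocytes, read 470 and 309 in Foxp3-labelled Tconv, against 20.6 and 64.1 in Treg, at 2.88 ± 0.47 (adjusted p = 0.0299). Treg arrays were the low ones throughout, although 4 of the 12 genes lay at or below the array median on both Treg arrays and 3 on 1 of them. Pros1, protein S, a ligand of TAM receptors, was at 2.25 ± 0.36 (adjusted p = 0.0285). Others were Fam71b (3.44), Filip1l (2.49), the membrane glycoprotein gene Gpm6b (2.22), the endothelial lipase gene Lipg (2.02) and Lrmp (1.54). Both further probe sets of Lipg were above 0 and not called.

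Cytokine genes leaned upward, with 1 call. Of 19 effector T cell cytokines, 14 were above 0, where 55.9% of all genes were, and the median was 0.86. Csf1 alone was called, where 0.106% of all genes were called higher. Csf1, the macrophage growth factor, read 2486 and 2014 in Foxp3-labelled Tconv, against 208 and 475 in Treg, at 2.76 ± 0.40 (adjusted p = 0.0211). The 3 further probe sets of Csf1 were above 0 too, and 1 of them was called. Il2, whose transcription Foxp3 represses, read 254 and 1298 in Foxp3-labelled Tconv, against 18.4 and 77.9 in Treg. All Foxp3-labelled Tconv values were above all Treg values, but replicates were far apart in both groups, and it was not called (3.39 ± 0.84, adjusted p = 0.153). Ifng, the gene of interferon gamma, read 179 and 519 in Foxp3-labelled Tconv, against 60.4 and 62.5 in Treg, at 2.06 ± 0.83 (adjusted p = 0.363). Il10, an inhibitory cytokine, was the lowest of the list, with 198 and 45.5 in Foxp3-labelled Tconv, against 902 and 774 in Treg, and was not called (-2.89 ± 0.62, adjusted p = 0.0966). Of 9 genes that Foxp3 is known to repress, 0 were called in either direction by limma, and 7 were above 0 with a median of 1.07. This list shares Il2, Cd40lg, Ifng, Il17a and Il4 with the cytokines. At an unadjusted p under 0.05, 5 of the 9 repressed genes passed, where 13.2% of all genes did. The 5 were Il2, Cd40lg, Satb1 and Ifng, above 0, and Il7r, below 0. Pde3b, a phosphodiesterase gene that Foxp3 silences in Treg, was at 1.07 ± 0.86 (adjusted p = 0.66), and the IL-7 receptor gene Il7r was at -1.70 ± 0.43 (adjusted p = 0.16).

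Growth programmes held no called gene. All 28 cell cycle genes tested were above 0, where 55.9% of all genes were, and their median was 0.47. Bub1b, a spindle checkpoint kinase, had the largest value at 0.93 ± 0.33 (adjusted p = 0.297). All 15 cholesterol synthesis genes were above 0 as well, with a median of 0.70, and Pmvk, a kinase of the mevalonate pathway, came nearest to a call (1.73 ± 0.34, adjusted p = 0.0702). At an unadjusted p under 0.05, 3 of the 28 cell cycle genes and 5 of the 15 cholesterol genes passed, beside 13.2% of all genes. Medians over these lists were 0.29 and 0.60 under quantile normalization. Of 18 interferon-induced genes, 13 were below 0, with a median of -0.43 and 0 called (2 at an unadjusted p under 0.05, again beside 13.2%). Their summed intensity was 1239 and 1040 in Foxp3-labelled Tconv, against 1216 and 3668 in Treg. Treg array 2 alone was high, and Treg array 1 was level with Foxp3-labelled Tconv.

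Genes beside Foxp3 on the X chromosome were taken after their values were seen, 6 tested genes on each side in the order of RefSeq's GRCm38.p6. Of these 12, 4 were called lower and 1 higher, beside 0.626% of all genes. The called lower ones were the nearest 2 tested genes on each side of Foxp3. Flicr was at -4.77 ± 0.31 and Ppp1r3f, a regulatory subunit of protein phosphatase 1, at -2.44 ± 0.35 (adjusted p = 0.0189) before it, and Ccdc22, which acts in endosomal sorting, was at -2.12 ± 0.28 (adjusted p = 0.0146) after it. The further probe set of Ccdc22 was not called (-0.45). Syp, the gene of synaptophysin, a synaptic vesicle protein, came next and read 45.9 and 8.48 in Foxp3-labelled Tconv, against 1474 and 300 in Treg, at -4.14 ± 0.67 (adjusted p = 0.0289). Both Treg arrays were high for Syp but differed from each other. Plp2, the next tested gene after it, was at -0.43 ± 0.26 (adjusted p = 0.541). On the far side, Usp27x was at -1.49 ± 0.34 (adjusted p = 0.116), and Dgkk, the outermost of the 6, was the only one called higher.

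**Figure D4:**
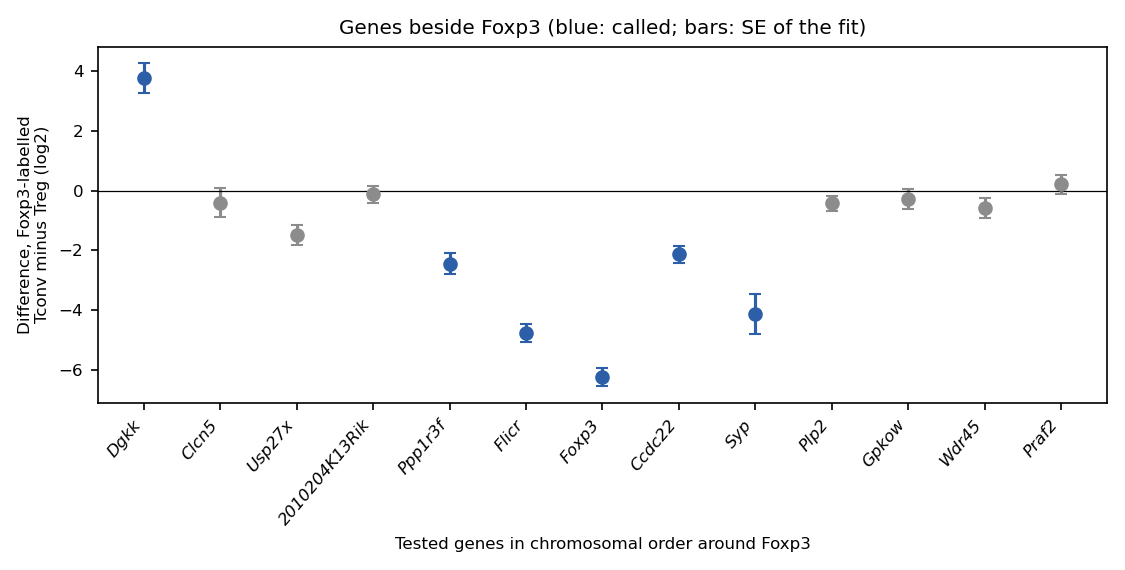
Tested genes are in chromosomal order around Foxp3, and the vertical axis gives the log2 difference, Foxp3-labelled Tconv minus Treg, with bars for the SE of the fit and blue for called genes. Differences from Ppp1r3f to Syp lie between -2.12 and -6.24, and Dgkk lies at 3.76.

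Tconv mock arrays were set beside the comparison to place its genes. They share arrays with it in both fits that follow, so values are given without a test of overlap. The median over all probe sets was 0.26 for Foxp3-labelled Tconv minus Tconv mock and -0.26 for Tconv mock minus Treg. Ikzf2 was at 0.51 ± 0.31 in Foxp3-labelled Tconv minus Tconv mock and at -6.75 ± 0.31 in Tconv mock minus Treg. Cpe was at 0.03 and -6.56, Nt5e at 0.45 and -5.32, Flicr at 0.20 and -4.97, and Foxp3 at -0.80 and -5.43, in the same order. For these genes the Tconv mock arrays lay near the Foxp3-labelled Tconv arrays. For Hs3st3b1 the values were 1.90 and 1.28, and for Csf1 1.47 and 1.30, so Tconv mock lay between the groups. Dgkk was at -1.96 and 5.72, with Tconv mock, at 785 and 1328, the highest group.

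A few lower genes had Tconv mock near Treg. Taken after their values were seen, 9 of the 59 lower genes had a Tconv mock mean within 1 log2 unit of Treg. Every lower gene lay more than 1 log2 unit below Treg. This choice therefore fixes the mean of Foxp3-labelled Tconv below both other groups. Lgals3, galectin-3, read 75.2 and 55.0 in Foxp3-labelled Tconv, 1477 and 678 in Tconv mock, and 765 and 1288 in Treg. Foxp3-labelled Tconv were the low group against both. Its difference from Treg was -3.65 ± 0.43 (adjusted p = 0.00793), and from Tconv mock -3.66 ± 0.43. Vim, the intermediate filament vimentin, read 2952 and 2248 in Foxp3-labelled Tconv, 7324 and 7639 in Tconv mock, and 8193 and 8723 in Treg. Its difference from Treg was -1.71 ± 0.27 (adjusted p = 0.0263). Foxp3-labelled Tconv were again lowest. The adherens junction genes Ctnnd1 (p120 catenin) and Jup (plakoglobin) were at -2.55 ± 0.39 and -1.75 ± 0.30 against Treg, while Tconv mock minus Treg was -0.52 and -0.53. Others were the leukotriene B4 receptor gene Ltb4r1, the metalloprotease gene Adam8, the protease inhibitor gene Serpinb6a, Niban2 and Ttc39c, which differed from Treg by between -1.79 and -4.05. Of these 9 genes, Lgals3 alone was called in Foxp3-labelled Tconv minus Tconv mock, and no other of the 59 lower genes was.

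**Figure D5:**
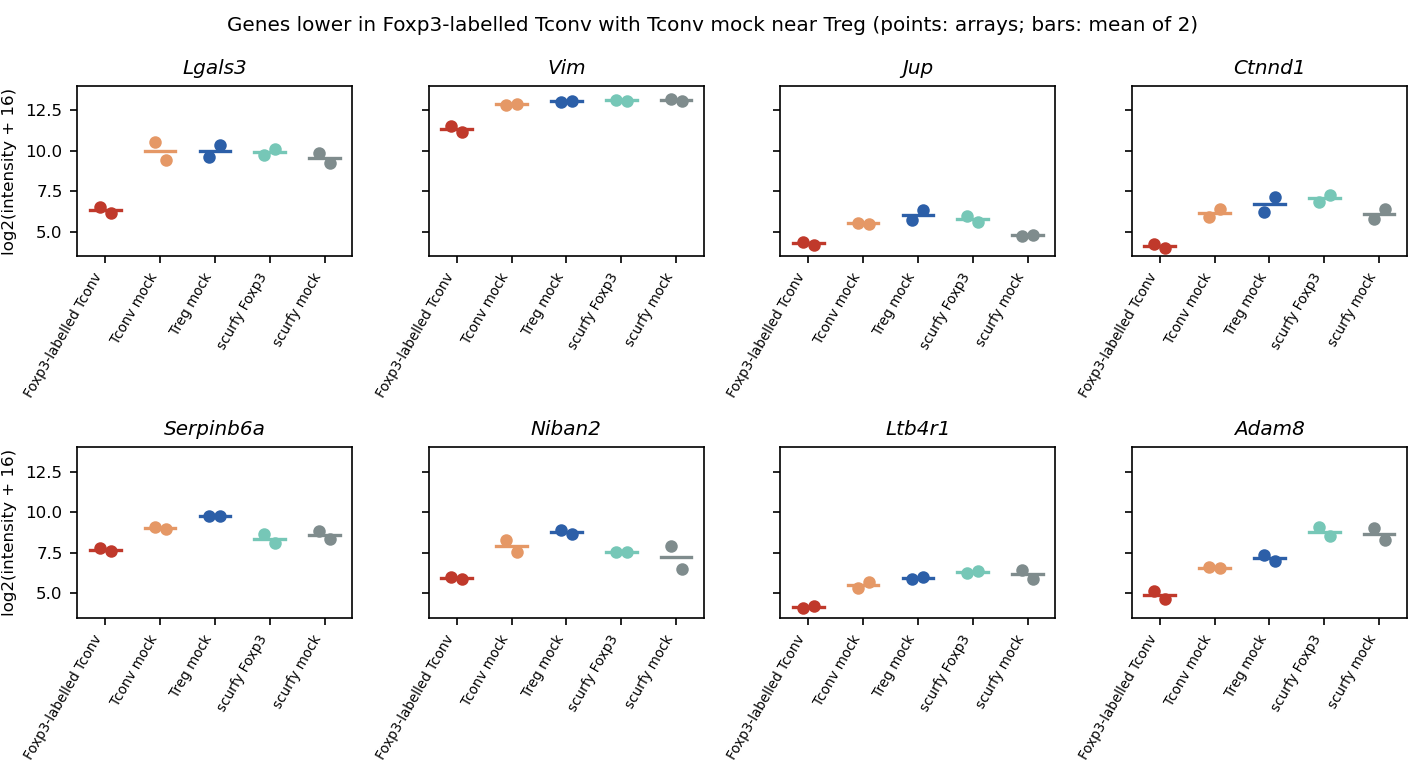
Each panel shows 1 of 8 genes with Tconv mock near Treg, with log2(intensity + 16) on the vertical axis, 1 point per array and a bar at the mean of 2 arrays for each group. Foxp3-labelled Tconv arrays lie below both the Tconv mock and the Treg arrays in each panel, and the choice of genes fixes this order for the means.

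Tconv mock and scurfy mock share no array with Foxp3-labelled Tconv or Treg, and differ in GFP of the starting cells and in genotype, since scurfy cells carry the Foxp3 mutation. Tconv mock minus scurfy mock had the same sign as Foxp3-labelled Tconv minus Treg at 126 of the 145 called probe sets (86.9%), beside 59.7% of all probe sets. Because its median over all probe sets was -0.24, the directions are given apart: 107 of 124 lower probe sets (86.3%) kept their sign, where 79.7% of all probe sets below 0 did, and 19 of 21 higher ones (90.5%), where 40.1% of all above 0 did. In that comparison 0.326% of all probe sets were called, and 32 of the 145 were called with the same sign and 0 with the opposite one. Ikzf2 was at -6.70 (adjusted p = 3.75e-05), Foxp3 at -4.28 (adjusted p = 0.000767) and Cxcr6 at -5.51 (adjusted p = 0.000767). Cxcr6 read 3433 and 1485 in scurfy mock, far above its 300 and 202 in Treg. Hs3st3b1 was at 1.70 (adjusted p = 0.0406) and Dgkk at 5.28 (adjusted p = 0.00363). Of the 71 called genes, 61 kept their sign there and 18 were called. Among those not called were Klrg1 (-1.96, adjusted p = 0.21), Nt5e (-1.02, adjusted p = 0.269), Il18r1 (-0.55, adjusted p = 0.665) and Itgb8 (-0.21, adjusted p = 0.871). Csf1, at -1.05 (adjusted p = 0.336), was opposite in sign to its value against Treg. So were Tead1 (0.32), Gad1 (0.25) and Lgals3 (0.44), among others, and none of these was called there. Without 1 array at a time, the share with the same sign ran from 78.0%, without Tconv mock array 2, to 100%, without Foxp3-labelled Tconv array 2, where 11 probe sets were called.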

How the data were processed

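Arrays were Affymetrix Mouse Genome 430 2.0, hybridised with biotinylated cDNA (NuGEN FL-Ovation), per the labels' protocols. For each array the authors deposited a linear intensity of every probe set, made with Affymetrix Expression Console, per the submitters' processing notes; version, scaling and summary method are not given there. Of 45101 probe sets, 64 were controls, 34958 had 1 gene symbol in the platform annotation, 932 several and 9211 none.

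Intensities were converted to log2 after adding 16, without further normalization. Non-control probe sets above the median of their array on at least 2 of the 10 arrays were tested. Groups came from the sample titles. All 10 arrays, in 5 groups of 2, entered limma 3.58.1 in R 4.3.3 (lmFit, eBayes), with 5 residual degrees of freedom, to which the prior added 4.72. Adjustment of the 2-sided p-values was by Benjamini-Hochberg across the probe sets tested, with a threshold of 0.05. A gene was read from its brightest probe set, by the mean of the 10 arrays.

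Named genes were the 15 largest called differences in each direction, some fixed genes, and from each of 35 gene lists the called members and the 3 with the smallest p; others are said to have been chosen after their values were seen. The members, the lists and the rule were chosen with earlier results of these data known. Alternatives were pseudocounts of 1 and 64, quantile normalization, scaling to the same 75th percentile, a filter at that percentile or none, 1 probe set or the mean of probe sets per gene, trend and robust options, array weights, a replicate block, the 4 compared arrays alone, and each array left out in turn, where a lone array was assumed to vary like the other groups. The pipeline was tested on simulated data. The number of arrays limits the precision.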

Additional observations from a re-analysis of the deposited data

How the results depend on the processing

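Of the 71 called genes, 0 changed sign under any alternative; Tnfrsf4, which was not called, was 0.08 and -0.15 under quantile normalization, and it ranged from -0.12 to 0.28 when each array was left out, with -0.07 without Treg array 1 and -0.12 without Foxp3-labelled Tconv array 1. Counts of called probe sets moved more than signs, and the cause was not tested. From 145 (21 higher, 124 lower), they went to 243 (44, 199) on scaling to the same 75th percentile, 38 (2, 36) at a pseudocount of 1, 55 (6, 49) with no filter, 240 (47, 193) with trend and robust options, 293 (60, 233) with array weights and 401 (81, 320) with the 4 compared arrays alone. Quantile normalization called 40 higher. Counting genes in place of probe sets gave 76 (60 lower) with 1 probe set per gene and 89 (71 lower) with the mean of probe sets. Alternatives chosen after seeing the data gave 254 (49, 205) without the 4 scurfy arrays and 245 (47, 198) without the 2 least correlated arrays. Leaving out each array in turn gave 11 to 222 calls, 1 to 41 higher and 10 to 181 lower, and a share with the same sign in Tconv mock minus scurfy mock of 78.0% to 100%. That share was 80.0% with no filter, and it could not be computed in the fits without scurfy arrays. With a replicate block 115 probe sets were called (14, 101), 104 of them among the 145; deviations of same-numbered Foxp3-labelled Tconv and Treg arrays correlated at -0.071, and those of all 10 pairs of groups at -0.143 to 0.150, so the numbers were not taken as pairs. Probe sets near the array median carry little signal over background, and 2 arrays a group limit every call.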

Other observations

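Th1 and cytotoxic genes had 0 of 15 called by limma (7 at an unadjusted p under 0.05, beside 13.2% of all genes) and a median of 0.33. Of these 7, Tbx21, Il12rb2, Ifng and Nkg7 were above 0, and Ccl5, Hopx and Gzmb were below 0. Tbx21, the gene of T-bet, the lead factor of Th1 cells, read 1456 and 1169 in Foxp3-labelled Tconv, against 398 and 262 in Treg, at 1.96 ± 0.44 (limma, adjusted p = 0.111). Foxp3-labelled Tconv arrays were both higher. Il12rb2, the signalling chain of the IL-12 receptor, read 617 and 399 in Foxp3-labelled Tconv, against 60.7 and 270 in Treg, at 1.79 ± 0.53 (adjusted p = 0.224). Ccl5, a chemokine gene, read 82.0 and 58.2 in Foxp3-labelled Tconv, against 126 and 299 in Treg, at -1.31 ± 0.40 (adjusted p = 0.238). Gzma, which encodes granzyme A, read 926 and 38.8 in Foxp3-labelled Tconv, against 25.7 and 771 in Treg, so the groups overlapped.

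Of 6 adenosine pathway genes, Nt5e alone was called, beside 0.52% of all genes called lower. Entpd1, the gene of CD39, read 89.8 and 23.9 in Foxp3-labelled Tconv, against 451 and 518 in Treg, and was not called (-2.94 ± 0.57, adjusted p = 0.0662), while Tconv mock read 394 and 227. Adk, adenosine kinase, read 1730 and 2034 in Foxp3-labelled Tconv, against 512 and 859 in Treg (1.48 ± 0.34, adjusted p = 0.124). Among 11 heparan sulfate genes Hs3st3b1 alone was called, beside 0.106% of all genes called higher. The median of these 11 was 0.22, which was -0.00 under quantile normalization. DNA methylation and demethylation enzymes had 0 of 11 called. At an unadjusted p under 0.05, 1 of the 11 passed, beside 13.2% of all genes. The de novo methyltransferase gene Dnmt3a read 1714 and 1821 in Foxp3-labelled Tconv, against 929 and 933 in Treg (0.91 ± 0.27, adjusted p = 0.229).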
